A study of Homo sapiens with 2 samples.

Results

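miR-103a-3p and miR-107 are near-identical microRNAs (miRNAs, short RNAs that guide Argonaute proteins to mRNAs) made from introns of the pantothenate kinase genes PANK1, PANK2 and PANK3. They were selected by name, 2 of the 2038 mature miRNA names in each table, and both were found. They were proposed with earlier RPKM results of these libraries known, so their values below are a description. They were measured in FaDu, a squamous carcinoma line of the human hypopharynx that the labels write FadU, by small RNA sequencing of total RNA (1 µg). The sphere library came from cells expanded in a medium without listed serum: DMEM-F12 plus the growth factors EGF and bFGF (10 ng/ml of each), N2 Plus Supplement, and antibiotics at 1%. The parental library came from cells in RPMI-1640 with serum (FBS, 10%) and antibiotics at 1%. The line was the same in both, while medium and growth form changed together. Each group has 1 library. No replicate check exists for any value, and no test between conditions was possible.

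Pantothenate kinases carry out the first step of coenzyme A synthesis, and their introns hold this miRNA family in vertebrates. A miRNA finds its targets mainly through its seed, bases 2 to 8 from its 5′ end. miR-103a and miR-107 are known to repress DICER1, the enzyme that cuts miRNA hairpins into mature miRNAs, and in mouse to lower insulin sensitivity in liver and fat. They also belong by sequence to a wider group with miR-15 and miR-16, miRNAs that restrain cyclins and BCL2.

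The mature sequences are shown first because they set what the measurements can separate. In RefSeq (GRCh38.p14), with the seed in capitals and bases counted from the 5′ end, they read
miR-103a-3p: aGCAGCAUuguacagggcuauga
miR-107: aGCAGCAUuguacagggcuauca
miR-16-5p: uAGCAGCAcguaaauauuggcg
miR-15a-5p: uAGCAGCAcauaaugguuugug
miR-195-5p: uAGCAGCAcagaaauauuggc
miR-424-5p: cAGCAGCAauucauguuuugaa

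The paralogs are both 23 nt long and differ at 1 base, G22C, next to the 3′ end (miR-103a-3p first). A read that stops before base 22 therefore fits both. How the authors assigned such reads is not given in the sources used here, so the division between the paralogs is uncertain while their sum is less so. The letters AGCAGC start at base 1 of the paralogs and at base 2 of the miR-15 and miR-16 type, which shifts the seed by 1 base. Of the 1714 deposited names with an exact name match in RefSeq, 2 carried AGCAGC at base 1 and 8 at base 2. The seed GCAGCAU was carried by 2 of the 1714, the paralogs themselves.

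The pair comes from 3 precursors, and they are printed with the mature arm in capitals to show that the conserved arm lies on the 3′ side of each hairpin.
MIR103A1: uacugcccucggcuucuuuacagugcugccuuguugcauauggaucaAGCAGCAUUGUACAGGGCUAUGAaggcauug
MIR103A2: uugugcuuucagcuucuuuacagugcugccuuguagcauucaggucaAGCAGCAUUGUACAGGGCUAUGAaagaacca
MIR107: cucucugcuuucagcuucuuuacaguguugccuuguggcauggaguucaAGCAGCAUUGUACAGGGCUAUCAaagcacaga

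MIR103A1 lies at chr5:168560896-168560973 on the minus strand inside PANK3, MIR103A2 at chr20:3917494-3917571 on the plus strand inside PANK2, and MIR107 at chr10:89592747-89592827 on the minus strand inside PANK1 (GRCh38.p14). In the principal GENCODE transcript of each host gene, with 7 exons in each, all 3 hairpins sat in intron 5, on the strand of the host. These introns are 2235, 1620 and 4419 nt long. The 2 hairpins of miR-103a yield the same mature 3′ arm, so its value cannot be divided between PANK3 and PANK2. The 5′ arms differ little as well. miR-103a-1-5p and miR-103a-2-5p differ by G1A, and the same part of the miR-107 hairpin differs from miR-103a-2-5p by C16U.

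DICER1 carries several matches to the shared seed. A 3′ UTR match was counted as ATGCTGC (bases 2 to 8), TGCTGCA (bases 2 to 7 with an A opposite base 1) or both together, ATGCTGCA, on the transcript strand only, with overlapping letters counted once. The 3′ UTR of DICER1 (the longest in GENCODE), 4270 nt long, held 6 of these, of which 4 were of the long form. They are printed as DNA, with the match in capitals, because they are the sites through which the pair could pair with the mRNA of its known target.
UTR position 1034: tatcacacctaaaatATGCTGCAg
UTR position 1534: cataccagtagaggttTGCTGCAa
UTR position 1635: ttgatgcttcgtggaATGCTGCAt
UTR position 2839: ttccgcagtcctaactATGCTGCg
UTR position 4110: aatatttaccatcacATGCTGCAg
UTR position 4162: attcatacagtaatcATGCTGCAg

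The first of these windows is chr14:95089456-95089479 and the last chr14:95086328-95086351, on the minus strand (GRCh38). Among 769 other genes whose 3′ UTR was within 10% of that length, 48.8% held at least 1 match and 1 gene held 6 or more, a share of 0.13%. The median was 0. A match is a description of letters, and DICER1 mRNA was not measured in these libraries.

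**Figure D1:**
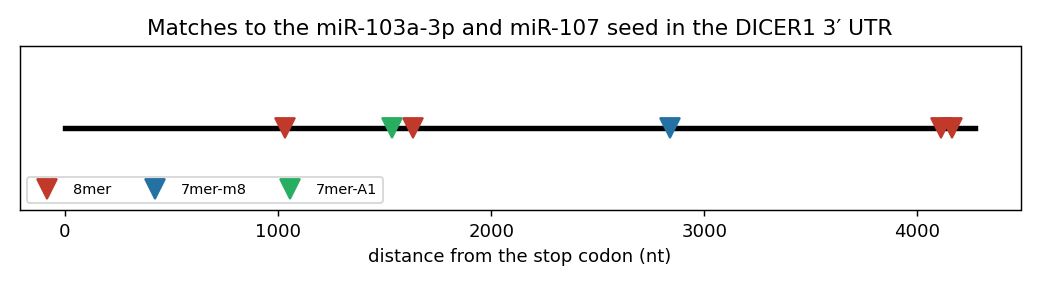
The line is the DICER1 3′ UTR, with distance from the stop codon in nt on the horizontal axis, and each triangle is a match to the seed of miR-103a-3p and miR-107, coloured by its form (8mer for the long form, 7mer-m8 for bases 2 to 8, 7mer-A1 for bases 2 to 7 with the A). The matches run from position 1034 to position 4162 of 4270 nt, with 2 of the long form at 4110 and 4162.

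RPKM (reads per kilobase of miRNA and per 1000000 reads, computed by the authors) summed to 5509070 in the sphere library and 26530000 in the parental library, 4.82 times less in the spheres. Levels are therefore given both as deposited and rescaled, with each column set to sum to 1000000. The commonest low value, taken as 1 read on a miRNA of 22 nt, was 8.07 RPKM in spheres and 5.84 RPKM in parental cells. At 23 nt a read is then worth 7.72 and 5.59 RPKM, steps that 16 values hit in each library, within a relative tolerance of 1e-04. This puts an estimated 683674 reads on miRNAs in spheres and 4550660 in parental cells. All 4 epithelial marker miRNAs were present, from 925 to 35056 rescaled RPKM in spheres and from 585 to 21938 in parental cells. Of 16 markers of liver, muscle, blood, mesenchymal, endothelial and neural cells, 3 reached the level counted as measured. These 3 were neural miR-9-5p (429 rescaled RPKM in spheres and 348 in parental cells), endothelial miR-126-3p (68.9 and 38.3) and mesenchymal miR-143-3p (66.3 and 25.9). The summed level of all 16 was 624 rescaled RPKM in spheres and 420 in parental cells, most of it miR-9-5p. miR-122-5p, miR-206 and miR-124-3p, the other neural marker, were listed at 0 in both. The part of other cell types in the values below was not tested.

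The pair took a larger share of the miRNA signal in spheres, while its deposited RPKM was lower there. miR-103a-3p stood at 5698 rescaled RPKM in spheres and 1689 in parental cells. miR-107 stood at 1532 rescaled RPKM in spheres and 437 in parental cells. Together they made up 0.723% of the miRNA signal in spheres and 0.213% in parental cells.

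The estimated reads behind these values were 4065 in spheres and 8020 in parental cells for miR-103a-3p, and 1093 and 2074 for miR-107. Both paralogs were thus far above the limit of 3 reads that a value of 0 allows. By share of miRNA, miR-103a-3p was 3.37-fold higher in spheres (95% counting interval 3.25 to 3.50) and miR-107 3.51-fold higher (3.26 to 3.78). The log2 folds of (rescaled RPKM + 0.5) were 1.75 and 1.81, and the summed pair was at 1.77. These intervals are exact (Clopper-Pearson), describe these 2 libraries rather than the conditions, and hold counting error alone. PCR copies of 1 molecule are counted apart in them.

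On the deposited scale the direction turned. miR-103a-3p had 31391 RPKM in spheres and 44804 RPKM in parental cells, a ratio of 0.701 (0.675 to 0.728). miR-107 had 8439 RPKM in spheres and 11586 RPKM in parental cells, a ratio of 0.728 (0.676 to 0.784). The log2 folds of (RPKM + 0.5) were -0.51 and -0.46. The pair was thus lower per read behind the authors' RPKM and higher per miRNA read, because the miRNA total itself was lower. Which of these scales follows the amount per cell cannot be told, because both are relative to the reads of the same library. Nor can fewer cells with the miRNA be told apart from less of it per cell.

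**Figure D2:**
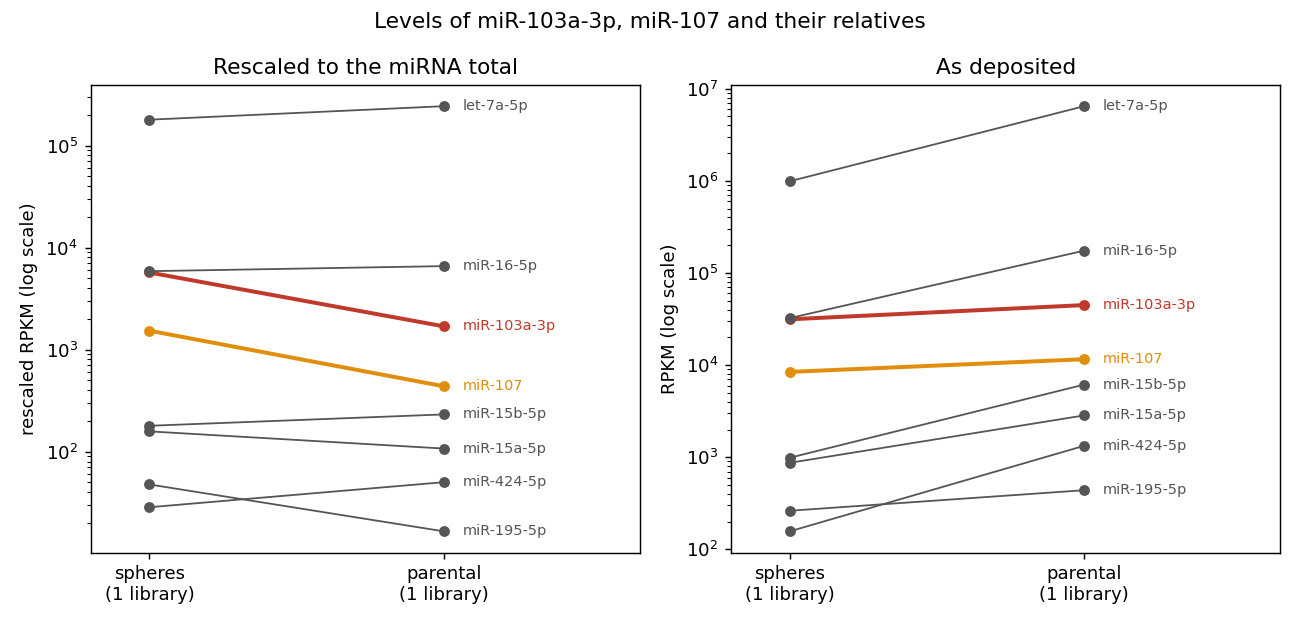
Each line joins the value of 1 miRNA in the sphere library (left) and in the parental library (right), on a log axis, in rescaled RPKM in the left panel and in RPKM as deposited in the right panel. The lines of miR-103a-3p and miR-107 run parallel; miR-103a-3p is close to miR-16-5p in spheres, at 5698 and 5871 rescaled RPKM, and well below it in parental cells, at 1689 and 6581.

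A fold of at least 2 was reached by 23.0% of the 269 measured miRNAs (those averaging at least 10 rescaled RPKM), in the direction of higher in spheres, and by 19.0% in the direction of lower. Both paralogs were among the higher ones. They were neighbours in the order of log2 folds, miR-107 at place 36 and miR-103a-3p at place 37 of 269. Among the 129 that averaged at least 100 they held places 11 and 12. As deposited, 6.32% of the 269 were at least 2-fold higher and 79.6% at least 2-fold lower, and neither paralog was in either set. The median log2 fold of the 269 was 0.02 rescaled and -2.25 as deposited, so both paralogs lay above the middle of the distribution. Rescaling shifts all log2 folds nearly alike, so this holds on either scale by construction. Since the paralogs were chosen with earlier results of these data known, nothing particular is read from these places.

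**Figure D3:**
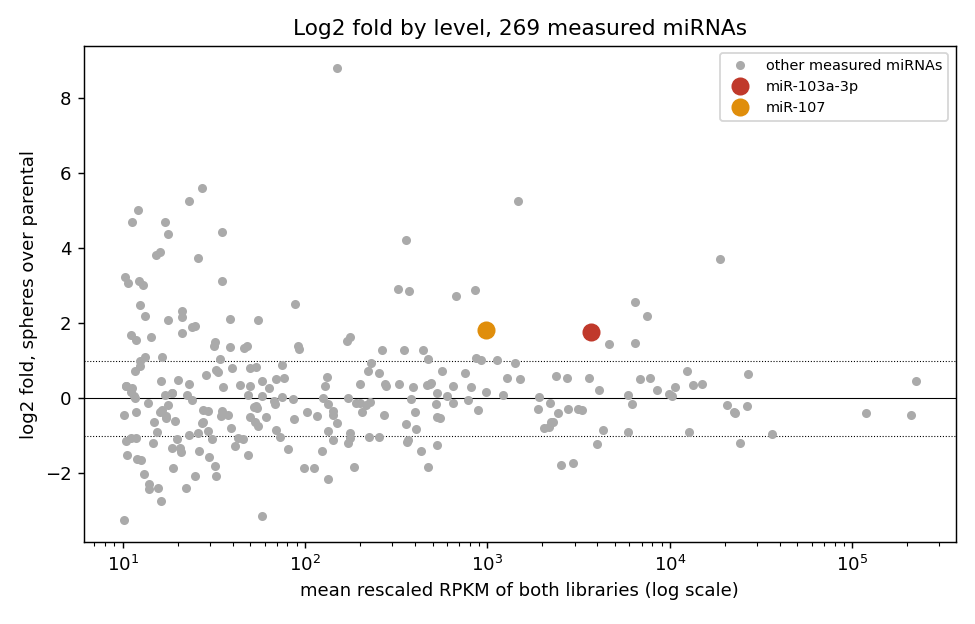
Each point is 1 of 269 measured miRNAs, with its mean rescaled RPKM over both libraries on a log axis and its log2 fold of spheres over parental cells on the vertical axis; dotted lines mark 2-fold. miR-103a-3p and miR-107 lie at nearly the same height, 1.75 and 1.81, at mean levels of 3693 and 984 rescaled RPKM.

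Of the 32 measured miRNAs at least as abundant as miR-103a-3p on average, itself included, 6 were at least 2-fold higher by share and 2 at least 2-fold lower, beside 23.0% and 19.0% of all 269 measured. The other 5 of the 6, named after their values were seen, were miR-203a of stratified epithelium, miR-200a-3p and miR-141-3p of the miR-200 family, miR-181a-5p and miR-221-3p. In the order of RPKM, miR-103a-3p was number 28 in spheres and number 48 in parental cells, and miR-107 number 49 in spheres and number 76 in parental cells.

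The neighbours in this order were close to miR-107 on both sides. In spheres it stood between miR-151a-3p at 8833 RPKM and miR-181b-5p at 8397 RPKM, and in parental cells between miR-141-5p at 11749 and miR-181d at 11233. The counting intervals overlapped in all 4 cases, so these levels cannot be ordered at this depth. For miR-103a-3p its interval overlapped that of miR-16-5p, next above it in spheres at 32343 RPKM. It did not overlap that of miR-27b-3p, next below at 24127 RPKM, nor those of miR-200a-3p (49332 RPKM) and miR-192-5p (32967 RPKM), next above and below in parental cells.

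The ratio between the paralogs was nearly the same in both libraries. miR-103a-3p had 3.72 times the RPKM of miR-107 in spheres and 3.87 times in parental cells. miR-107 made up 21.2% of the pair in spheres (95% interval 20.1% to 22.3%) and 20.5% in parental cells (19.8% to 21.3%). The log2 fold of miR-107 minus that of miR-103a-3p was 0.06, with a 95% interval of -0.06 to 0.18 (normal approximation, counting error only). This difference does not depend on the scaling of the libraries. At this depth no change in the measured ratio was detectable, and counting error alone allows a change of up to 0.18 in log2. The intervals leave out how reads that fit both paralogs were divided, which is not given in the sources used here. A larger change in the true ratio is therefore not excluded.

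The agreement of the paralogs has to be read beside other pairs of near-identical miRNAs, for which reads could be divided in the same way. Of the 269 measured miRNAs, 217 had an exact name match in RefSeq, and the rest could not enter. Among the 217, 12 pairs had the same length and differed at 1 base, and no such difference lay within bases 2 to 8. Pairs with an unmatched name are missing, so the places below hold among these 12 only. Ordered from the smallest difference in log2 fold, miR-103a-3p and miR-107 came at place 3 of the 12. In the other 11 pairs the size of the difference ran from 0.0079 to 0.81, with a median of 0.13, and the interval held 0 in 5 of them.

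The pairs closest together beside the paralogs were miR-19a-3p and miR-19b-3p at -0.0079 and let-7f-5p and let-7a-5p at 0.05 (the less minus the more abundant). The pairs farthest apart were miR-135b-5p and miR-135a-5p at -0.81, on as few as 25.5 estimated reads, and miR-30e-3p and miR-30a-3p at -0.47. For miR-27a-3p and miR-27b-3p, which differ at base 19 and so also near the 3′ end, the difference was 0.31 (0.23 to 0.39). The place of the base that differs is late in both pairs, and how reads were divided was not tested. Of the 12 pairs 2, the paralogs and miR-135a-5p with miR-135b-5p, had both members at least 2-fold higher by share. Taken singly, 23.0% of all 269 measured miRNAs were.

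**Figure D4:**
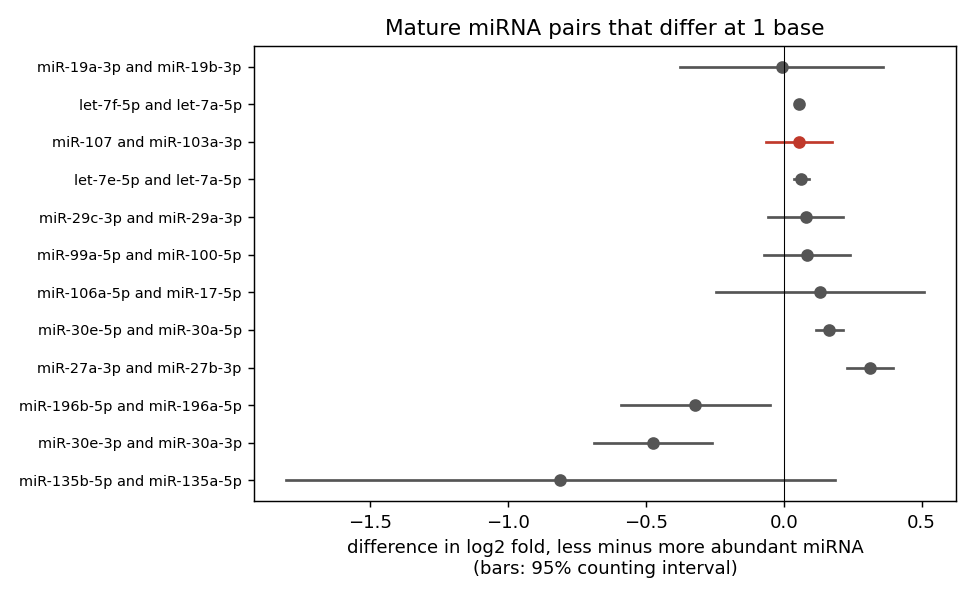
Each row is a pair of mature miRNAs that differ at 1 base, and the point gives the log2 fold of the less abundant miRNA minus that of the more abundant one, with its 95% counting interval as a bar. miR-107 and miR-103a-3p (red) lie at 0.06, with an interval of -0.06 to 0.18.

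The other names of the hairpins were near or at 0. miR-103a-2-5p, the opposite arm of the MIR103A2 hairpin, had 14.2 RPKM in spheres and 2.79 RPKM in parental cells, or 1.83 and 0.50 estimated reads. Both are under 3 reads, so no fold is given, and under this estimate not all reads were counted whole. miR-103b is read from the opposite strand of both miR-103a genes and is, base for base, the reverse complement of miR-103a-3p. It was listed at 0 in both libraries, which allows up to 23.2 RPKM in spheres and 16.8 RPKM in parental cells. Among the deposited names of the 3 loci, the signal thus lay on the 3′ arm of the PANK strand. No value was listed for the 5′ arm of MIR103A1 or of MIR107, so for these hairpins the arms could not be compared.

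The miRNAs with the AGCAGC letters 1 base further in did not share the pair's log2 fold as a group. Of 8 members of the miR-15 and miR-16 type (miR-15a, miR-15b, miR-16, miR-195, miR-424, miR-497, miR-503 and miR-646), 5 were measured. Of these 5, 1 was at least 2-fold higher by share and 0 were at least 2-fold lower, where 23.0% and 19.0% of all measured miRNAs were. Their median log2 fold was -0.16, against 0.02 over all measured miRNAs. As deposited, 4 of the 5 were at least 2-fold lower, a share near the 79.6% of all measured miRNAs, and the median was -2.43, against -2.25 over all.

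miR-16-5p, the most abundant of them, had 32343 RPKM in spheres and 174592 RPKM in parental cells. miR-103a-3p thus reached 0.971 of the miR-16-5p level in spheres and 0.257 of it in parental cells. The difference between their log2 folds was 1.92 (1.85 to 1.99), on any scaling. Between miR-107 and miR-16-5p it was 1.98 (1.86 to 2.09).

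miR-15b-5p had 987 RPKM in spheres and 6146 RPKM in parental cells, and miR-15a-5p had 870 and 2844. The difference in log2 fold from miR-103a-3p was 2.12 (1.85 to 2.40) for miR-15b-5p and 1.20 (0.89 to 1.50) for miR-15a-5p. Both, like miR-16-5p, are made from clusters in which a miR-15 and a miR-16 hairpin lie side by side, on chromosomes other than those of the PANK genes. miR-424-5p had 157 RPKM in spheres and 1332 RPKM in parental cells, and differed by 2.57 (1.90 to 3.24). The paralogs were higher relative to each of these 4 in spheres.

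miR-195-5p was the exception. It had 263 RPKM in spheres and 439 RPKM in parental cells, or 31.1 and 71.8 estimated reads, and its log2 fold of 1.50 by share was near that of the pair. The difference from miR-103a-3p was 0.23, with an interval of -0.38 to 0.84 that holds 0. miR-497-5p, from the same cluster as miR-195, had 2.75 estimated reads in spheres and 17.2 in parental cells. miR-503-5p was listed at 0 in spheres and had 1.21 estimated reads in parental cells, and miR-646 was listed at 0 in both.

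Summed, the 8 relatives had 34643 RPKM in spheres and 185464 RPKM in parental cells. The pair made up 53.5% of the RPKM of the 10 miRNAs in spheres and 23.3% in parental cells. miRNAs with the seed of the pair were thus the larger part of the AGCAGC signal in spheres and the smaller part in parental cells, and this comparison needs no scaling between libraries. Of the 10, miR-103a-3p and miR-16-5p carried most of the signal in either library.

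let-7a-5p, which also targets DICER1, differed from the pair as well. It had 987392 RPKM in spheres and 6448790 RPKM in parental cells, and was 31.5 times as abundant as miR-103a-3p in spheres and 144 times in parental cells. The difference in log2 fold, miR-103a-3p minus let-7a-5p, was 2.19 (2.14 to 2.25). The size of this difference is that of let-7a-5p alone, since the 5′ arms of its family were not alike. Their log2 folds by share ran from -1.21 (let-7i-5p) to 0.52 (let-7b-5p), with let-7a-5p at -0.44. All lay below those of miR-103a-3p (1.75) and miR-107 (1.81).

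Other intronic miRNAs whose paralogs lie in paralogous host genes were mixed. Of 7 names (miR-26a and miR-26b in CTDSP genes, miR-33a and miR-33b in SREBF genes, miR-208a and miR-208b in myosin heavy chain genes, and miR-218 in SLIT genes) 3 were measured, of which 2 were at least 2-fold higher by share and 0 at least 2-fold lower, beside 23.0% and 19.0% of all 269 measured miRNAs. miR-26b-5p stood at 1170 rescaled RPKM in spheres and 562 in parental cells, a log2 fold of 1.06. miR-26a-5p stood at 11770 rescaled RPKM in spheres and 9562 in parental cells, a log2 fold of 0.30. miR-218-5p had a log2 fold of 1.40, on 30 estimated reads in spheres and 74.5 in parental cells. All 3 were negative as deposited, at -1.21, -1.97 and -0.84. Unlike the PANK pair, miR-26a-5p and miR-26b-5p lay 0.76 apart in log2 fold (0.64 to 0.88). They also differ in mature length (22 and 21 nt), so their reads may be separable in another way than those of the PANK pair, which was not tested.

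Of 7 miRNAs linked to insulin and lipid metabolism (miR-33a, miR-33b, miR-122, miR-143, miR-375, miR-378a and miR-802) 3 were measured, of which 1 was at least 2-fold higher by share and 0 at least 2-fold lower, again beside 23.0% and 19.0% over all. miR-143-3p was the higher one, with a log2 fold of 1.34 on 43.2 estimated reads in spheres and 112 in parental cells. miR-375, an islet miRNA, had 0.54 and miR-378a-3p, from an intron of the coactivator gene PPARGC1B, -0.37. As deposited the 3 stood at -0.91, -1.73 and -2.63. miR-33a-5p and miR-33b-5p, which repress the cholesterol exporter ABCA1, had 3.18 and 4.10 estimated reads in spheres and 12.5 and 7.89 in parental cells.

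The 5 miRNAs averaging at least 100 rescaled RPKM whose log2 fold by share was closest to the 1.77 of the summed pair were miR-660-5p at 1.64, miR-362-5p at 1.52, miR-221-3p at 1.47, miR-181a-5p at 1.43 and miR-141-3p at 2.18. The likeness is over 2 libraries and is a description. As deposited these stood at -0.62, -0.75, -0.80, -0.83 and -0.090, beside -0.50 for the pair. miR-660-5p lies 0.12 below the pair on both scales. Rescaling shifts all log2 folds nearly alike, so the distances from the pair are nearly the same on both by construction.

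The size of the pair's fold depended on the scaling. Under the 4 other scalings derived from the miRNA values (upper quartile, trimmed mean, median of ratios and the total without the top 20) the log2 fold of miR-103a-3p ran from 1.48 to 1.82 and that of miR-107 from 1.54 to 1.87, so both stayed at least 2-fold higher. As deposited, with no rescaling, the sign turned, to -0.51 and -0.46.

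**Figure D5:**
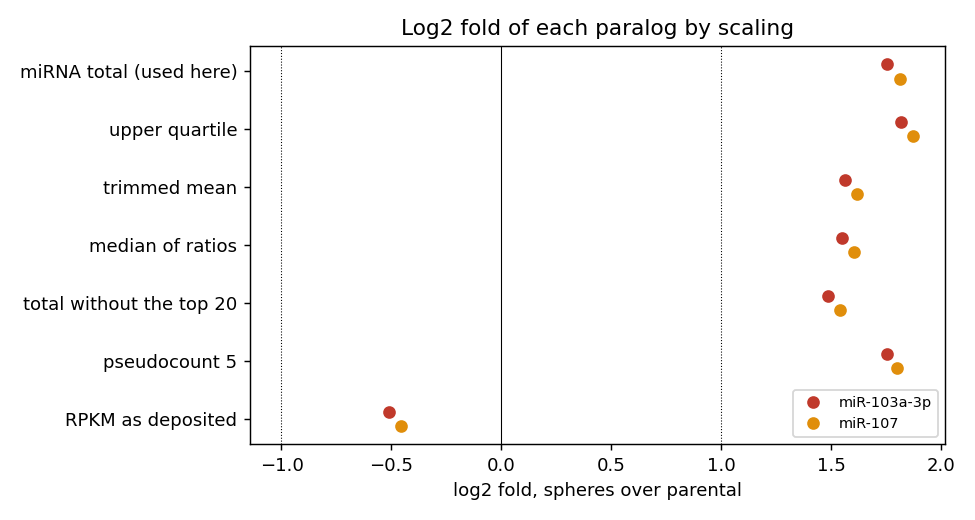
The horizontal axis gives the log2 fold of spheres over parental cells for miR-103a-3p and miR-107 under each setting, with dotted lines at 2-fold. The 6 settings based on the miRNA signal lie between 1.48 and 1.87, and RPKM as deposited lies at -0.51 and -0.46.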

How the data were processed

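Small RNA libraries of FaDu spheres and parental cells (1 each) were deposited with 1 RPKM value per mature miRNA name, which the authors computed per the file headers. Per the submitters' processing notes the build was hg19. Aligner, counting tool, annotation release and the handling of reads that fit several miRNAs: not given in the sources used here. The miRNAs and lists were chosen with earlier results of these data known.

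Columns were rescaled to 1000000, and log2 folds used a pseudocount of 0.5, which understates changes of low miRNAs. A mean of at least 10 rescaled RPKM counted as measured, and a fold of at least 2 as higher or lower. Reads were estimated as RPKM over the value of 1 read at the RefSeq mature length (22 nt without an exact name match). That the commonest value is 1 read on 22 nt is an assumption. No count model was used. Named were the pair, the other names of its hairpins, the fixed lists, the 5 closest log2 folds, neighbours in level and pairs at 1 base. let-7a was compared as 1 DICER1 regulator of the let-7 family, whose members did not share 1 log2 fold. Alternatives were 4 scalings, deposited RPKM, a pseudocount of 5, other filters and summed arms. Hairpins and mature sequences came from RefSeq (GRCh38.p14), introns and UTRs (1 per gene, the longest) from GENCODE 29. Python 3.11.15, pandas 2.3.3 and SciPy 1.17.1 were used. The calls of a fold of at least 2 by share and the interval of a fold were tested on simulated data, and the other steps were not.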

Additional observations from a re-analysis of the deposited data

How the results depend on the processing

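No paired analysis was possible because each group holds 1 library, and for that reason no replicate could be left out. RPKM as deposited reversed the log2 folds, to -0.51 for miR-103a-3p, -0.46 for miR-107 and -0.50 for the summed pair, by construction, since the miRNA total was 4.82 times lower in spheres. On that scale 17 miRNAs were at least 2-fold higher and 214 lower, where the rescaled values had 62 and 51, and the median of the miR-15 and miR-16 type was -2.43, where it had been -0.16. For miR-103a-3p, miR-107, the summed pair and that median, in this order, the trimmed mean gave 1.56, 1.62, 1.57 and -0.36, the median of ratios 1.55, 1.60, 1.56 and -0.37, and the total less its top 20 miRNAs 1.48, 1.54, 1.49 and -0.44. The upper quartile gave 1.82 for miR-103a-3p, 1.83 for the summed pair and -0.10 for the median. These scalings shift all log2 folds alike, by -0.27 to 0.06. Unfiltered, 193 higher and 180 lower miRNAs were found, and at a mean of 100 or more, 23 and 18, since more or fewer miRNAs enter. A pseudocount of 5 and summed arms moved no value of the pair beyond its counting interval, and the log2 difference between the paralogs stayed at 0.05 to 0.06. Depth limits what can be said of miRNAs on few estimated reads, such as miR-424-5p (19.5 in spheres), miR-497-5p (2.75) and miR-103a-2-5p (1.83).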
